A study of Mus musculus with 123 samples.

Results

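The loss of Sox2 was examined in the late inner cell mass (ICM) of the mouse blastocyst. The comparison used 16 single late ICMs of the Sox2 line out of 123 samples in the series, namely all 8 labelled KO and all 8 labelled Ctrl at this stage, and its members were taken from these labels alone. Single-embryo transcriptomes of this kind were collected to learn what Oct4 (gene symbol Pou5f1) and Sox2 each do as the ICM matures. Mothers carried Sox2 flanked by loxP sites on both alleles together with Zp3-Cre, which acts in the growing oocyte, and were mated to fathers with 1 Sox2 allele replaced by an EGFP cassette. All 16 embryos therefore lacked maternal Sox2. Ctrl embryos kept an intact paternal allele, and KO embryos, recognized by EGFP fluorescence, lacked Sox2 altogether. Superovulated females gave the embryos, the strain label being B6C3F1, and these were cultured from E2.5 in the presence of the MEK inhibitor PD0325901 at 1 µM and taken as late ICMs at E4.5 after immunosurgery, which strips off the trophectoderm. Ctrl and KO embryos shared the inhibitor and the surgery, so neither group is an untreated blastocyst, and the strain background and the heterozygous state of the Ctrl embryos limit both groups as a model. The early ICMs of the same line, taken at E3.75, and the late ICMs of the Oct4 line, taken at E4.5, each 8 Ctrl and 8 KO, were used for comparison only. Both had PD0325901 at 1 µM. The Oct4 line was bred in the same way with floxed Pou5f1, so its Ctrl embryos lacked maternal Pou5f1. Its KO embryos, recognized by mKO2 fluorescence, lacked Pou5f1 altogether. Levels in morulae of the Sox2 line, taken at E2.75 with no treatment listed (8 Ctrl and 8 KO), are given for a pair of genes and in a plot of the stages. Embryo numbers begin with 1 or 2, and these label sets, whose meaning is not stated, hold 4 Ctrl and 4 KO embryos each.

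Sox2 is a transcription factor of the HMG-box family that binds DNA beside the POU factor Oct4, often on adjoining sites. In an untreated late ICM the cells divide into epiblast and primitive endoderm. The epiblast is pluripotent and forms the embryo proper, and the primitive endoderm lines the yolk sac. The study gave the MEK inhibitor to hold back primitive endoderm and turn the whole ICM to epiblast. Epiblast cells secrete FGF4, and both cells and their neighbours respond to it through the FGF receptor and the kinases MEK and ERK. Signals of the LIF family, received by the LIF receptor and gp130, act through STAT3 to sustain naive pluripotency.

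Sites at which SOX and POU factors can bind side by side are shown first, because Sox2 is known to act with Oct4 on such sites. The composite was searched in promoters, on both strands, as the SOX element CNTTGT followed by the POU element NATGC, where N is any base, and capitals mark the bases that match. The 3′ UTR of Fgf4, in exon 3 of 3, holds both elements at chr7:144864394-144864411, + strand of GRCm38 (GENCODE vM21 annotation), with 3 bases more between them than in that composite and the POU element in the longer form ATGCNAAT. This wider arrangement was taken from the Fgf4 site itself and was held by 5 of 12137 transcripts on either strand, Fgf4 included by construction. The window of 250 bases before to 50 bases after the start of Nanog (chr6:122707239-122707538, + strand, RefSeq, GRCm38.p6) holds a composite 72 bases before the start on the opposite strand. The same window of Fam169a (chr13:97067037-97067336, + strand) has 1 on its own strand, and Fam169a is given, by a choice made after its values were seen, as the 1 gene called lower with such a window. The window of Cdx2 (chr5:147307200-147307499, - strand) holds the octamer, the site of POU factors alone, 147 bases before the start.
Fgf4 3′ UTR site: CTTTGTttggATGCTAAT
Nanog promoter: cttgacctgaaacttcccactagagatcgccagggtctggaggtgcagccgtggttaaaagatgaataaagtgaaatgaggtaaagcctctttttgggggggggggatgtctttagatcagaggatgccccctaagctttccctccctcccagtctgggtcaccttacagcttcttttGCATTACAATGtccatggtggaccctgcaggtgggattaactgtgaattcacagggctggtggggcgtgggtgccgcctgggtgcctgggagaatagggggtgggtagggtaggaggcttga
Fam169a promoter: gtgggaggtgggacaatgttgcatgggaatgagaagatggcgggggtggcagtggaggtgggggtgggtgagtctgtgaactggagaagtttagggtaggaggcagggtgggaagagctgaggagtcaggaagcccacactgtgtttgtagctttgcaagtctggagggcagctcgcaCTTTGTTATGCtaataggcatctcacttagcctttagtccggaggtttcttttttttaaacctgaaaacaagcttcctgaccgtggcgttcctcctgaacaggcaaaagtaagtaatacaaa
Cdx2 promoter: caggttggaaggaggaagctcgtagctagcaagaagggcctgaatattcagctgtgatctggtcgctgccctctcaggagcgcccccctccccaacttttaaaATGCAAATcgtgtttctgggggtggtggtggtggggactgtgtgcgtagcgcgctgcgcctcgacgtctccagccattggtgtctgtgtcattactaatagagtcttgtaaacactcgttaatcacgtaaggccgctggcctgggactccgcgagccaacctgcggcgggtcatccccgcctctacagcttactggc
Over the 10094 of 14053 tested genes with such a window, the composite was found in 0.119%, in 1 of 392 genes called lower and in 0 of 318 called higher. The octamer ATGCAAAT, read on both strands, was found for 1.7% of all these genes, 2.3% of those lower and 2.2% of those higher. The SOX motif CATTGT, which can overlap the composite, was in 9.16%, 10.2% and 8.49%. A match of letters is a description and not a measured binding site.

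Values below are counts of unique molecular identifiers (UMIs, random tags that count each captured transcript once) scaled to a common library size with TMM factors (CPM), given as lowest to highest over the 8 embryos of a group. Differences are KO minus Ctrl on the log2 scale with the standard error (SE) of the edgeR quasi-likelihood fit, and calling a gene required both a difference of 1 or more either way and a p under 0.05 after Benjamini-Hochberg adjustment. Totals ran from 737753 to 929681 UMIs in Ctrl and from 605931 to 990034 in KO (exact permutation test, two-sided, p = 0.282), with 13484 ± 306 and 13136 ± 476 genes detected (SD, p = 0.0968). Within set 2 the KO embryos had 705 fewer detected genes by mean (exact permutation p = 0.0857), and within set 1 they had 8.25 more (exact permutation p = 1). Y-linked genes gave 10 or more UMIs in 6 Ctrl and 3 KO embryos, so sex was unevenly spread, and 17 of 432 tested X-linked genes were called higher and 17 lower (7.87% together). The first principal component of the 500 most variable genes, with 38.2% of the variance, ran from -33.1 to -10.6 in Ctrl and from 3.7 to 30.9 in KO embryos. The KO embryo labelled 2-6 lay nearest to Ctrl and stood apart in several genes below, and these are given without it too. In whole ICMs, fewer cells of a type cannot be told apart from less RNA per cell.

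Sox2 itself was read from 92.1 to 281 CPM in Ctrl embryos (median 162) and from 8.16 to 32.3 in KO embryos (median 14.1), and the groups did not overlap. The difference was -3.35 ± 0.32 (SE), adjusted p = 8.05e-14. Sox2 (ENSMUSG00000074637, mm10 chr3:34650405-34652461, + strand) lies within the noncoding Sox2ot on the same strand, and 1 loxP site lies in its 3′ UTR, so tags beyond the deleted part or from Sox2ot can add to the KO level and the value checks the labels only in part. Markers of the sampled tissues were then summed per embryo. The 8 epiblast markers together ranged from 2277 to 3854 CPM in Ctrl embryos (median 2777) and 1123 to 1834 in KO embryos (median 1325), with 7 called lower (background 3.61% lower), the deleted Sox2 among them, and Nanog as the exception. Trophectoderm markers, 8 in number, summed to 128 to 2699 CPM in Ctrl embryos (median 360.5) and 554 to 1724 in KO embryos (median 821), and Cdx2, Gata3 and Eomes were called higher. The Ctrl embryos 1-10, at 2699, and 2-6, at 1795, held the highest sums. The 6 tested primitive endoderm markers summed to 242 to 954 CPM in Ctrl embryos (median 435) and 488 to 814 in KO embryos (median 559.6) with none called. No marker was at 0 in all embryos of a group, and the part of these marker levels in the results below was not tested.

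Altogether 977 of 14053 tested genes were called, 6.95% of them, of which 469 rose (3.34%) and 508 fell (3.61%) in KO. The median difference over all genes tested was 0.00125. With totals alone in place of TMM, 379 rose and 628 fell, and the median over all genes moved to -0.0935. Between Ctrl and KO embryos, 301 genes did not overlap (2.14%), of which 210 were called. The adjusted p alone was passed by 1935 genes (13.8%), 978 higher (6.96%) and 957 lower (6.81%). Expression was at least 20 CPM in the higher group for 461 of the called genes and under 5 CPM for 193. Overlapping genes share their tags where counting ignored strand, which is not stated. Among the genes named this touches Fgd1 with Tsr2, Obsl1 with Tmem198, Cib2 with Sh2d7, Ankzf1 with Glb1l and Atg9a, Junb with Prdx2, Pfkp with Pitrm1 and Psph with Cct6a, as well as Slc7a7 with Oxa1l, Rarb with Top2b, Mxd3 with Prelid1, Cebpb with Tmem189, Atp1b1 with Nme7, Fam169a with Nsa2, Ddit3 with Mars, Stat3 with Stat5a, Jak1 with Raver2, Sox15 with Mpdu1 and Fgfr2 with several neighbours. Other named genes overlap noncoding or predicted genes. Cyp2b23 and Rbmxl2 have close paralogs and are likewise uncertain.

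**Figure D1:**
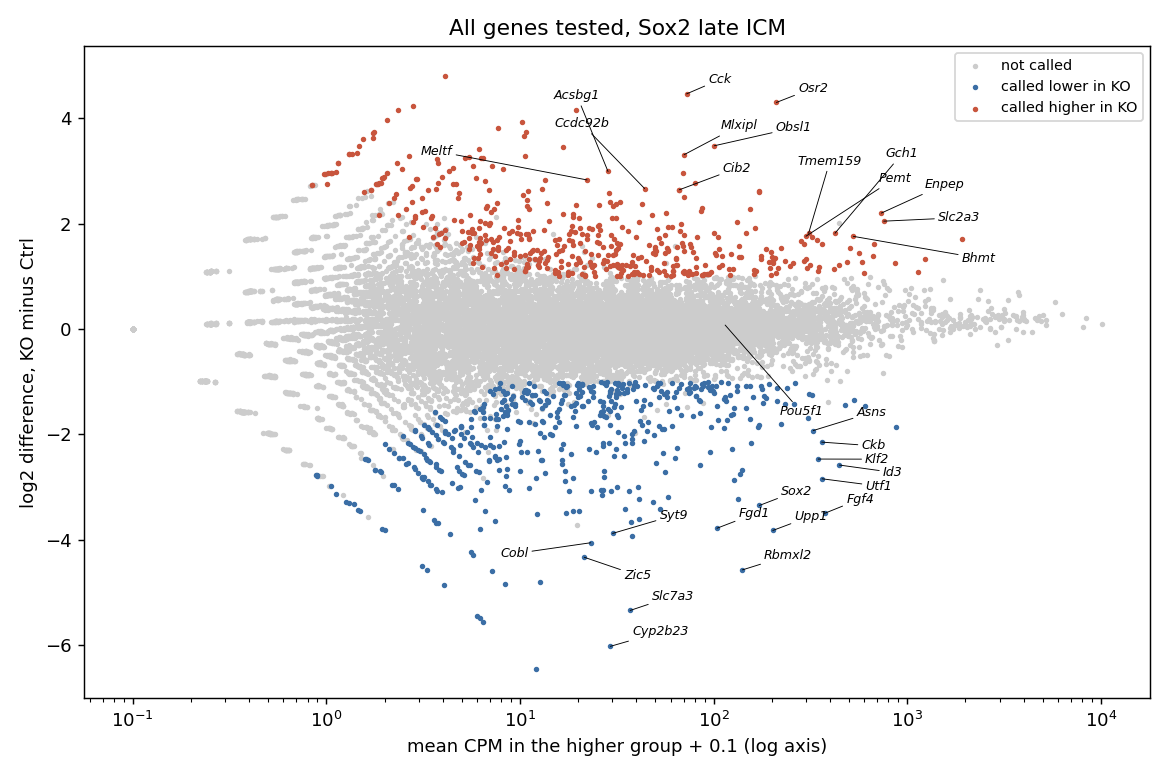
All 14053 tested genes by the mean CPM of the higher group (x, log axis, 0.1 added) and the log2 difference of KO minus Ctrl (y), with 469 genes called higher in red, 508 called lower in blue and the rest in grey. Fgf4, Utf1, Id3, Klf2 and Ckb lie far below the line at high levels, and Pou5f1 lies on it at 0.07.

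Among genes at 20 CPM or more the deepest falls were in Cyp2b23, Slc7a3 and Rbmxl2. Cyp2b23, a cytochrome P450 gene, was read from 12.5 to 56.2 CPM in Ctrl embryos (median 29.9) and from 0 to 1.20 in KO embryos (median 0). Its 216 Ctrl UMIs against 2 in KO gave a ratio of 94.5 (95% exact Poisson interval 25.8 to 785, counting error only), and the fitted difference was -6.03 ± 0.60 (SE), adjusted p = 2.00e-12. Slc7a3, an importer of cationic amino acids, ranged from 5.66 to 80.96 CPM in Ctrl embryos (median 32.03) and from 0 to 3.43 in KO embryos (median 0) at -5.35 ± 0.66 (SE), adjusted p = 8.83e-10. Neither gene overlapped between the groups. Rbmxl2, a retrogene of the RNA-binding protein family of Rbmx, ranged from 67.3 to 250.2 CPM in Ctrl embryos (median 98.5) and from 1.22 to 12.6 in KO embryos (median 4.21) with a difference of -4.58 ± 0.55 (SE), adjusted p = 2.92e-10. Upp1, the uridine phosphorylase that frees ribose from uridine, was found from 97.5 to 288 CPM in Ctrl embryos (median 201) and from 1.70 to 37.2 in KO embryos (median 8.73) and differed by -3.83 ± 0.37 (SE), adjusted p = 8.05e-14. Fgd1, an exchange factor for Cdc42, fell from 104 ± 25.9 to 7.63 ± 6.38 CPM (mean ± SD) with a log2 difference of -3.79 ± 0.33 (SE), adjusted p = 1.06e-15, and Syt9, a synaptotagmin, fell from 30 ± 9.43 to 2.01 ± 2.32 CPM at -3.88 ± 0.50. These 3 genes did not overlap either, whereas Zic5 (a zinc finger factor, -4.34 ± 0.69) and Cobl (an actin nucleator, -4.06 ± 0.68) did so in their lowest Ctrl embryos, at 2.65 and 0 CPM. The log2 difference of Slc7a3 was -6.22 without KO 1-5, and that of Zic5 was -4.99 without KO 1-5.

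Abundant genes fell as well. Utf1, a chromatin-bound epiblast factor, was read from 241 to 422 CPM in Ctrl embryos (median 372) and from 30.7 to 108 in KO embryos (median 39.1), a difference of -2.85 ± 0.22 (SE), adjusted p = 3.39e-19. Id3, an inhibitor of basic helix-loop-helix factors, ranged from 330.3 to 544 CPM in Ctrl embryos (median 438) and from 47.7 to 93.8 in KO embryos (median 76.3) at -2.59 ± 0.30 (SE), adjusted p = 6.13e-11. In both genes the highest KO embryo stayed below the lowest Ctrl embryo. Ckb, the brain-type creatine kinase that buffers ATP, ranged from 255 to 581 CPM in Ctrl embryos (median 360.4) and from 34.98 to 133 in KO embryos (median 80.3), which is -2.15 ± 0.22 (SE), adjusted p = 1.05e-12. The groups were again separate for Ckb, with its lowest Ctrl embryo at 255.

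Among genes at 20 CPM or more the steepest rises were in Cck, Osr2 and Obsl1. Cck, which encodes the peptide hormone cholecystokinin, was read from 0 to 9.06 CPM in Ctrl embryos (median 2.19) and from 23.2 to 181 in KO embryos (median 44.3), a difference of 4.46 ± 0.52 (SE), adjusted p = 7.40e-11. Osr2, a zinc finger factor of limb and palate, ranged from 0 to 30.5 CPM in Ctrl embryos (median 8.89) and from 17.1 to 693 in KO embryos (median 127) at 4.30 ± 0.61 (SE), adjusted p = 4.52e-08. Cck was separate between the groups, while the lowest KO embryos of Osr2 lay within the Ctrl range. Mlxipl, which encodes the glucose-responsive factor ChREBP, ranged from 2.16 to 17.3 CPM in Ctrl embryos (median 6.55) and from 50.3 to 90.5 in KO embryos (median 67.1) at 3.31 ± 0.39 (SE), adjusted p = 1.12e-10. Obsl1, a cytoskeletal adaptor, differed by 3.48 ± 0.40 (SE), adjusted p = 1.27e-10, and Acsbg1, an acyl-CoA synthetase, by 2.99 ± 0.39 (SE), adjusted p = 3.43e-09. Neither overlapped between groups. Meltf, Ccdc92b and Cib2 rose by 2.83, 2.67 and 2.64 with adjusted p of 6.09e-06, 1.34e-06 and 1.28e-06. At higher levels Enpep, the aminopeptidase that trims angiotensin, was found from 99.9 to 273 CPM in Ctrl embryos (median 150.5) and from 438 to 1222 in KO embryos (median 649.7) and differed by 2.20 ± 0.33 (SE), adjusted p = 1.92e-07. Gch1, the first enzyme of tetrahydrobiopterin synthesis, rose from 120.2 ± 31 to 424 ± 204 CPM (1.82 ± 0.21), and Tmem159, a lipid droplet protein, from 88.1 ± 32.99 to 309.6 ± 90.1 CPM (1.82 ± 0.20). Enpep, Gch1 and Tmem159 were separate in all embryos. The log2 difference of Obsl1 was 4.20 without Ctrl 2-1.

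**Figure D2:**
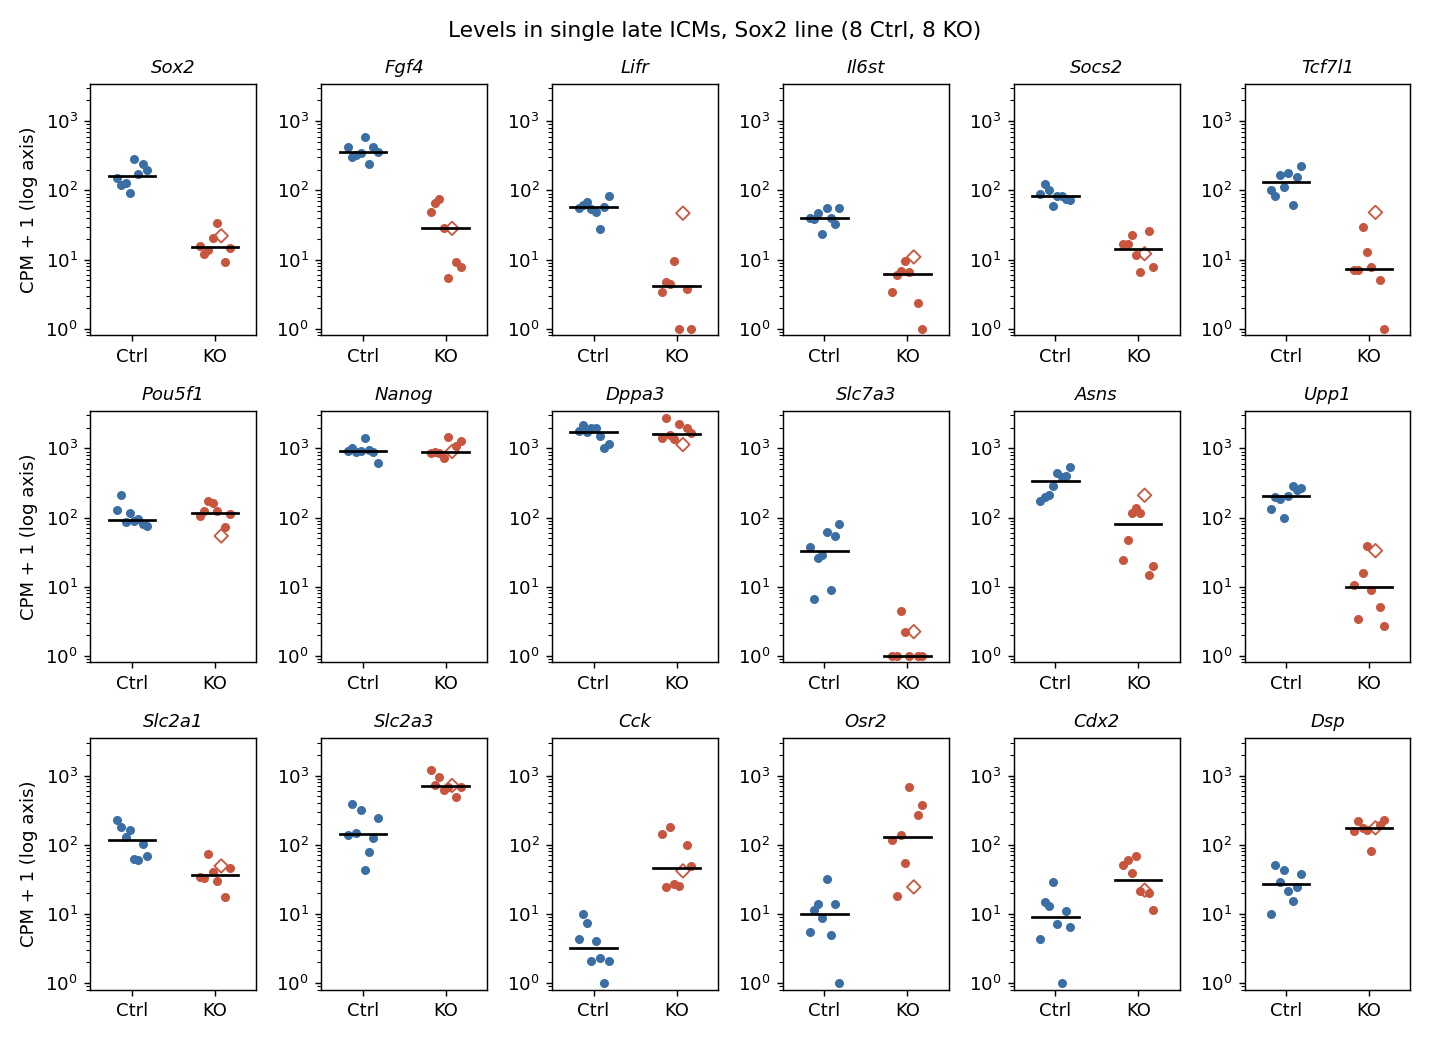
CPM plus 1 (y, log axis) of single genes in each of the 8 Ctrl (blue) and 8 KO (red) late ICMs, with the median as a bar and the KO embryo 2-6 as an open diamond. Fgf4, Il6st and Socs2 are separate between the groups, Pou5f1, Nanog and Dppa3 overlap throughout, and in Lifr and Tcf7l1 the KO embryo 2-6 is the highest of its group.

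Transcription factors of naive pluripotency were split. Of 16 tested, 4 were called lower and none higher (background 3.61% lower), with a median difference of -0.09. The 4 were Sox2, Zscan10, Klf2 and Prdm14. Klf2, a Krüppel-like factor of the ground state, was read from 212 to 478 CPM in Ctrl embryos (median 339) and from 27.2 to 109 in KO embryos (median 58.7), at -2.47 ± 0.25 (SE), adjusted p = 1.05e-12, and Zscan10, a zinc finger partner of Oct4 and Sox2, from 21.2 to 67.2 CPM in Ctrl embryos (median 42.2) and from 0 to 12.4 in KO embryos (median 0.852), at -3.60 ± 0.52 (SE), adjusted p = 9.45e-08. Both were separate between the groups. Prdm14, which holds back FGF signalling and DNA methylation, ranged from 18.5 to 51.9 CPM in Ctrl embryos (median 33) and from 3.62 to 18.8 in KO embryos (median 7.98), -2.04 ± 0.41 (SE), adjusted p = 1.18e-04. Its highest KO embryo only just reached the lowest Ctrl embryo. The log2 difference of Zscan10 was -4.30 without KO 2-6.

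Pou5f1, Nanog and most other factors of the network were not called. Pou5f1 was read from 73.4 to 212 CPM in Ctrl embryos (median 91.9) and from 53.2 to 170.4 in KO embryos (median 117), a difference of 0.07 ± 0.19 (SE), adjusted p = 0.86, and Nanog from 611 to 1411 CPM in Ctrl embryos (median 927) and from 733 to 1465 in KO embryos (median 892), a difference of 0.07 ± 0.23 (SE), adjusted p = 0.891. Ctrl and KO embryos overlapped throughout in both. Dppa3 (0.09 ± 0.16), Zfp42 (0.02 ± 0.14), Sall4 (0.08 ± 0.15), Nr5a2 (0.12 ± 0.20) and Tbx3 (0.42 ± 0.18) were not called. Klf4 (-0.80 ± 0.24 (SE), adjusted p = 0.0138) and Tfcp2l1 (-0.57 ± 0.14 (SE), adjusted p = 0.00161) passed the adjusted p but not the fold minimum, and Esrrb was at -0.53 ± 0.22 (SE), adjusted p = 0.0954. The Nanog window with its composite site thus belongs to a gene whose difference was 0.07, and the Fgf4 site to a gene whose difference was -3.50. Fam169a, the third gene shown, fell from 19.5 ± 6.42 to 7.09 ± 4.15 CPM at -1.41 ± 0.35 (SE), adjusted p = 0.00243. Of 8 tested Sox family members 2 were called lower (25%, background 3.61%), one of them the deleted Sox2. Sox21 (-1.22 ± 0.31 (SE), adjusted p = 0.00332) was the other, while Sox15 was at 0.01 ± 0.30. Sox21 was at -2.14 in set 1 and -0.39 in set 2 and was not called in set 2 alone (adjusted p = 0.51).

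Among other genes of pluripotent cells, 9 of 20 tested were called lower (background 3.61%) and none higher, with a median of -0.92. Pecam1, an adhesion molecule of the epiblast surface, was read from 12.2 to 45.98 CPM in Ctrl embryos (median 23.4) and from 0 to 6.86 in KO embryos (median 2.57), a difference of -3.07 ± 0.50 (SE), adjusted p = 2.13e-06. Sap30, a subunit of the Sin3 histone deacetylase complex, ranged from 29.1 to 65.05 CPM in Ctrl embryos (median 39.96) and from 1.24 to 8.52 in KO embryos (median 3.64), -3.24 ± 0.33 (SE), adjusted p = 1.13e-12. Morc1, a silencer of transposons in the germ line, ranged from 17.2 to 75.9 CPM in Ctrl embryos (median 51.2) and from 2.23 to 6.82 in KO embryos (median 4.87), -3.28 ± 0.47 (SE), adjusted p = 6.64e-08. All 3 genes were separate between groups. Tcl1, a co-activator of Akt, differed by -3.09 ± 0.45 (SE), adjusted p = 1.04e-07, and Spp1, the secreted osteopontin, by -1.87 ± 0.60 (SE), adjusted p = 0.0241, with Spp1 spread from 1.21 to 1018 CPM within KO. L1td1 (-0.41 ± 0.23) and Dppa5a (-0.22 ± 0.17) were not called. Foxd3, a forkhead factor of the later epiblast, fell from 157 ± 53.9 to 34.99 ± 26.5 CPM at -2.18 ± 0.49 (SE), adjusted p = 7.01e-04, and its groups were separate. It was 1 of 3 called lower among 10 tested formative genes, with Etv5 and Zic5. Spp1 was not called without any 1 of Ctrl 1-10, KO 1-1, KO 1-3, KO 1-5, KO 2-10, KO 2-3 or KO 2-8 (-1.77 to -1.68). Its difference was -2.78 without KO 1-6.

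In the LIF pathway both receptor chains fell, and neither the kinase Jak1 nor Stat3 was called. Of 9 tested ligands, receptors and kinases, 2 were called lower (background 3.61%) and none higher, and their median was 0.15. Lifr, the ligand-binding chain, was read from 26.5 to 82.04 CPM in Ctrl embryos (median 56.2) and from 0 to 45.8 in KO embryos (median 3.07), -2.72 ± 0.54 (SE), adjusted p = 9.88e-05. Il6st, which encodes the shared chain gp130, ranged from 22.8 to 55.1 CPM in Ctrl embryos (median 38.8) and from 0 to 9.90 in KO embryos (median 5.23), -3.01 ± 0.38 (SE), adjusted p = 1.77e-09. Il6st was separate between groups, and in Lifr only KO 2-6 reached Ctrl levels, the difference without it being -4.15 (adjusted p = 2.35e-07). By label set Lifr was at -3.67 in set 1 and -2.07 in set 2, not called in set 2 alone (adjusted p = 0.0956). Jak1 was at 0.23 ± 0.20 and Stat3 at 0.02 ± 0.16, neither called. Among 10 tested STAT3 targets, 4 fell (40% against the same background) and none rose, with a median of -0.68. Socs2, a feedback inhibitor of cytokine receptors, ranged from 58.5 to 122 CPM in Ctrl embryos (median 82.3) and from 5.57 to 24.5 in KO embryos (median 13.4), -2.58 ± 0.28 (SE), adjusted p = 4.24e-12. Bcl3, an IκB-type co-regulator, ranged from 43.7 to 69.1 CPM in Ctrl embryos (median 52.4) and from 0 to 10.8 in KO embryos (median 3.25), -3.43 ± 0.39 (SE), adjusted p = 5.08e-11. Both were separate between groups, as was Junb, a subunit of AP-1, at -2.28 ± 0.35 (SE), adjusted p = 4.31e-07. Socs3 fell with overlap at -2.16 ± 0.59 (SE), adjusted p = 0.00671, and Pim1 was at 0.16 ± 0.29.

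The gene of the ligand FGF4 was among the deepest changes of an abundant transcript. Fgf4 was read from 238 to 581 CPM in Ctrl embryos (median 355) and from 4.46 to 73.2 in KO embryos (median 27.4), a difference of -3.50 ± 0.36 (SE), adjusted p = 1.16e-12, and the highest KO embryo lay well below the lowest Ctrl embryo. Its difference was -2.71 in set 1 and -5.07 in set 2. Of 6 tested ligands 3 fell and 1 rose (66.7% called, against 6.95% of all tested genes), with a median of -1.45. Fgf10 fell at -1.97 ± 0.46 (SE), adjusted p = 0.00127, and at -2.81 (adjusted p = 1.61e-05) without KO 2-6, and Fgf3 fell at -1.91 ± 0.61 (SE), adjusted p = 0.0219 from a median of only 7.38 CPM. Fgf1 had no UMI in Ctrl and 11 in KO, 8 of these in KO 1-3. The 95% exact Poisson interval of its ratio began at 2.87 (counting error only). None of 11 tested receptors and adaptors was called (median 0.03). Fgfr1 was at 0.63 ± 0.20 (SE), adjusted p = 0.0234, and Fgfr2, the receptor of trophectoderm and primitive endoderm, at 0.62 ± 0.25 (SE), adjusted p = 0.0795. Targets of ERK moved both ways with MEK inhibited in both groups, 3 up and 3 down of 15 (40% called, against the same 6.95%, median -0.03). Etv5, an ETS factor, ranged from 248 to 372 CPM in Ctrl embryos (median 328) and from 92.9 to 168 in KO embryos (median 139), -1.26 ± 0.23 (SE), adjusted p = 1.95e-05, and was separate between groups. Dusp6, an ERK phosphatase, rose at 1.10 ± 0.37 (SE), adjusted p = 0.0337, and Spry4, a feedback inhibitor, fell at -1.47 ± 0.51 (SE), adjusted p = 0.0407. Ier3 (2.10, adjusted p = 0.0177) and Phlda1 (1.28, adjusted p = 8.47e-04) rose, and Myc fell. Fgf1 was not called without KO 1-3 (2.29). Fgf3 lost its call without any 1 of Ctrl 2-4, Ctrl 2-6, KO 1-3 or KO 2-3 (-1.74 to -1.62). Dusp6 was no longer called without any 1 of Ctrl 1-5, Ctrl 2-3, Ctrl 2-4, KO 1-3, KO 1-5, KO 2-10 or KO 2-8 (0.995 to 1.08). Spry4 was not called without any 1 of Ctrl 2-1, Ctrl 2-4, Ctrl 2-6, KO 1-1, KO 1-5, KO 1-6, KO 2-10, KO 2-3 or KO 2-8 (-1.41 to -1.11). The difference in Spry4 was -2.40 without KO 2-6. Within the label sets Fgf3 was at -0.79 in set 1 and -2.81 in set 2, Fgf10 at -1.27 in set 1 and -2.26 in set 2 and Fgfr2 at 1.26 in set 1 and -0.38 in set 2.

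Some Nodal and BMP pathway genes fell. Of 7 tested Nodal ligands and co-receptors, 3 fell and none rose (42.9% called, against 6.95% of all tested genes, median -1.21). Gdf3, a ligand of the TGFβ family, was read from 73.7 to 123 CPM in Ctrl embryos (median 99.1) and from 7.24 to 57.5 in KO embryos (median 25.2), -1.85 ± 0.28 (SE), adjusted p = 3.25e-07, with separate groups. Tdgf1, which encodes the co-receptor Cripto, ranged from 357 to 659 CPM in Ctrl embryos (median 473) and from 57.96 to 371 in KO embryos (median 151), -1.44 ± 0.28 (SE), adjusted p = 5.61e-05, and the highest KO embryo just passed the lowest Ctrl embryo. Inhbb, an activin subunit, was at -2.15 ± 0.76 (SE), adjusted p = 0.0431. Lefty1 had 15 UMIs in Ctrl, 12 of these in Ctrl 2-4, against 5 in KO. It was not called, at -1.21 ± 0.82 (SE), adjusted p = 0.367 (-2.73 without KO 2-6, adjusted p = 0.0552). Of the 9 receptors and SMAD-pathway genes 1, Tgif1 (-1.31, adjusted p = 2.97e-08), was called, and lower (11.1%). Among 16 BMP pathway genes 2 rose and 2 fell (25% called, median -0.17). Bmp4 fell at -1.78 ± 0.49 (SE), adjusted p = 0.00663, and its target Id3 fell while Id2 rose. Id2 ranged from 18.5 to 656 CPM in Ctrl embryos (median 183) and from 277 to 1351 in KO embryos (median 652), 1.61 ± 0.50 (SE), adjusted p = 0.0179, with overlap, and Id1 was not called at -1.10 ± 0.65. Nog, a BMP antagonist, had 3 UMIs in Ctrl and 20 in KO, a ratio of 7.62 (95% interval 2.26 to 40.1). In the Wnt pathway 2 of 26 genes fell and none rose, 7.69% against 6.95% of all tested genes (median 0.05). Tcf7l1, the repressive TCF factor of pluripotent cells, was read from 59.6 to 221 CPM in Ctrl embryos (median 133) and from 0 to 47.02 in KO embryos (median 6.40), -3.23 ± 0.42 (SE), adjusted p = 2.92e-09, and its groups were separate. Fzd9, a receptor, had 22 UMIs in Ctrl and 2 in KO. Of 19 Hippo pathway genes Amot (1.49, adjusted p = 1.82e-05) alone was called, and it rose. Inhbb was not called without any 1 of Ctrl 2-1, Ctrl 2-3, Ctrl 2-4, Ctrl 2-6, KO 1-1, KO 1-5, KO 1-6, KO 2-10, KO 2-6 or KO 2-8 (-2.14 to -1.91). Id2 lost its call without KO 1-1 (1.39). Nog was no longer called without KO 2-10 (1.90). The differences were -2.98 without KO 1-3 for Inhbb and -4.51 without KO 1-5 for Fzd9. Inhbb was at -0.29 in set 1 and -2.98 in set 2 and Fzd9 at -1.99 in set 1 and -4.51 in set 2.

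**Figure D3:**
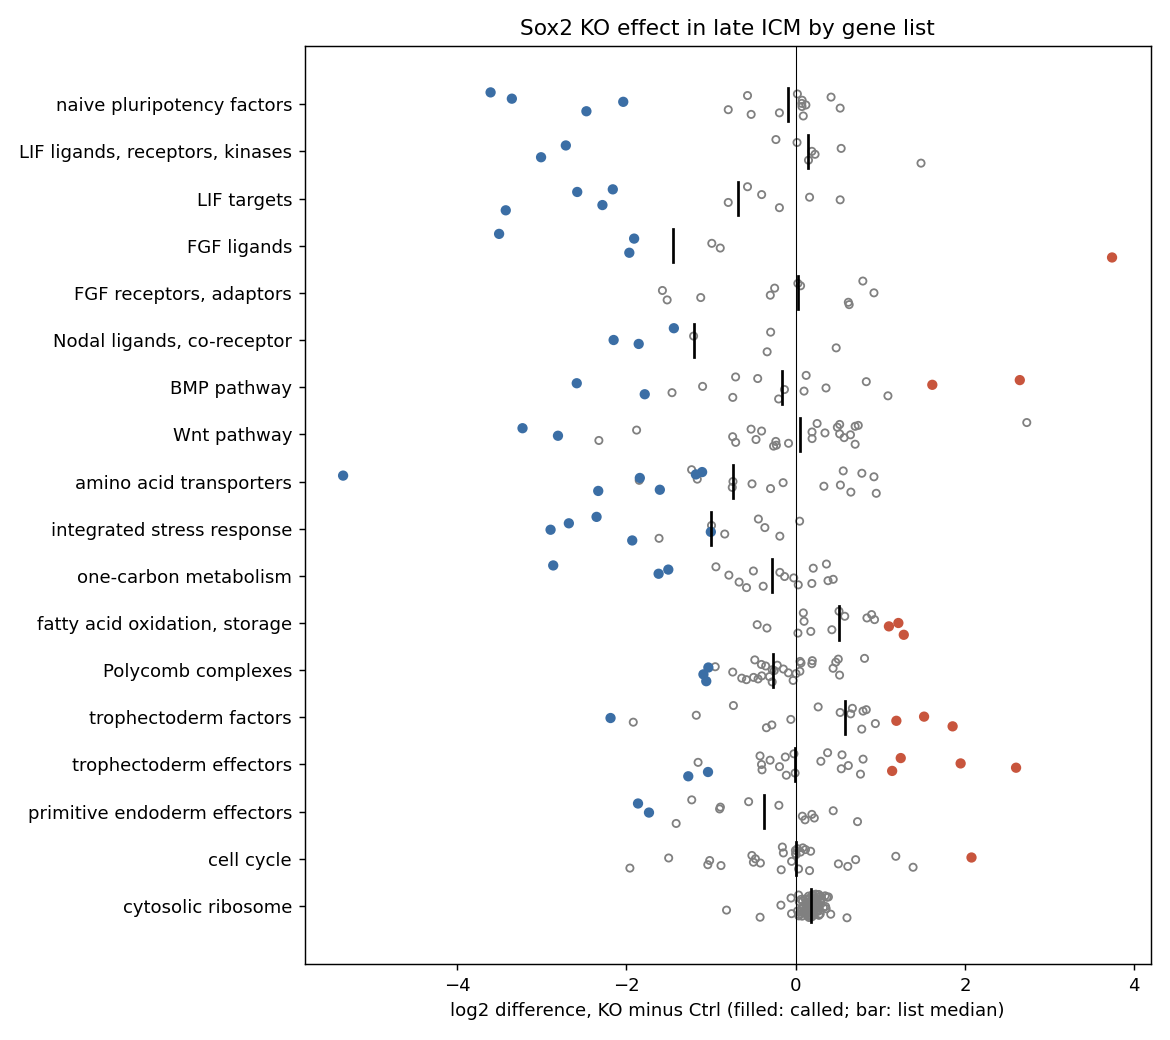
Log2 difference of KO minus Ctrl (x) for each tested member of a gene list (rows), filled where called (blue lower, red higher) and with the list median as a bar. Among the lists drawn FGF ligands have the lowest median at -1.45, and the 87 cytosolic ribosomal genes lie close together around 0.18 with none called.

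Among genes of amino acid transport and of the response to amino acid supply, several fell and most were not called. Of 21 tested transporters 6 were lower (28.6%, background 3.61%) and none higher, with a median of -0.74. Besides Slc7a3 these were Slc1a4, a carrier of small neutral amino acids (from 13.6 to 35.6 CPM in Ctrl embryos (median 21.96) and from 0 to 10.3 in KO embryos (median 3.76), -2.33 ± 0.46 (SE), adjusted p = 7.47e-05), which was separate between groups, and Slc7a1, another cationic carrier (-1.84 ± 0.38 (SE), adjusted p = 2.02e-04). Slc1a5, the glutamine carrier, fell at -1.60 ± 0.36 (SE), adjusted p = 6.57e-04, Slc7a5, the leucine exchanger, at -1.18 ± 0.28 (SE), adjusted p = 0.00116, and Slc7a7 at -1.11 ± 0.40 (SE), adjusted p = 0.0489. Of 12 genes of the integrated stress response, in which ATF4 activates amino acid genes, 5 fell and none rose (41.7% called, median -0.998). Asns, asparagine synthetase, was read from 172 to 544 CPM in Ctrl embryos (median 332) and from 13.6 to 209 in KO embryos (median 80.7), -1.93 ± 0.40 (SE), adjusted p = 1.84e-04. Nupr1 ranged from 112 to 174 CPM in Ctrl embryos (median 139) and from 1.36 to 40.1 in KO embryos (median 23.2), -2.68 ± 0.45 (SE), adjusted p = 3.23e-06, without overlap, while Asns overlapped through KO 2-6 at its highest. Without that embryo Asns was at -2.25 (adjusted p = 2.69e-05) and Slc7a1 at -2.26 (adjusted p = 1.36e-05). Trib3, a pseudokinase, fell at -2.35 ± 0.43 (SE), adjusted p = 2.55e-05. Chac1, which degrades glutathione, differed by -0.36 in set 1 and -4.38 in set 2, and Cebpb was at -1.002 ± 0.32 (SE), adjusted p = 0.025. Atf4 itself (-0.19 ± 0.14) and Ddit3 (-0.36 ± 0.38) were not called. Among 18 genes of serine and one-carbon metabolism 3 fell and none rose (16.7% called, median -0.29). Tdh, the threonine dehydrogenase on which mouse pluripotent cells depend, ranged from 82.7 to 171 CPM in Ctrl embryos (median 133) and from 3.62 to 36.7 in KO embryos (median 11.6), -2.86 ± 0.33 (SE), adjusted p = 5.00e-11. Mthfd2, a mitochondrial folate enzyme, ranged from 101 to 147 CPM in Ctrl embryos (median 126) and from 10.2 to 70.2 in KO embryos (median 37.4), -1.62 ± 0.27 (SE), adjusted p = 3.54e-06, and Psph, the last step of serine synthesis, fell at -1.50 ± 0.24 (SE), adjusted p = 1.02e-06. Tdh and Mthfd2 did not overlap between the groups. Slc7a7 was not called without any 1 of Ctrl 1-10, Ctrl 2-1, Ctrl 2-3, Ctrl 2-4, Ctrl 2-6, KO 1-1, KO 1-3, KO 2-10, KO 2-6 or KO 2-8 (-1.14 to -0.93). Cebpb lost its call without any 1 of Ctrl 2-3, Ctrl 2-6, KO 1-3, KO 1-6, KO 2-10, KO 2-3, KO 2-6 or KO 2-8 (-0.99 to -0.85). Within the label sets Trib3 was at -1.41 in set 1 and -3.11 in set 2, Cebpb at -0.29 in set 1 and -1.68 in set 2, Slc7a7 at -0.73 in set 1 and -1.42 in set 2 and Ddit3 at 0.38 in set 1 and -1.79 in set 2.

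Glucose carriers changed in opposite directions. Slc2a3, the high-affinity carrier GLUT3, was read from 41.8 to 382 CPM in Ctrl embryos (median 141) and from 483 to 1186 in KO embryos (median 702), 2.05 ± 0.33 (SE), adjusted p = 1.09e-06, and the groups were separate. Slc2a1, the widespread carrier GLUT1, ranged from 59.6 to 224 CPM in Ctrl embryos (median 114) and from 16.3 to 72.04 in KO embryos (median 36.1), -1.64 ± 0.30 (SE), adjusted p = 1.88e-05, with a small overlap. Slc2a4 (2.11, adjusted p = 0.029) rose, which made 2 higher and 1 lower of 8 tested sugar carriers (37.5% called, against 6.95% of all tested genes, median 0.73). Of 15 glycolytic genes 1 was called, Pfkp, the platelet-type phosphofructokinase, which ranged from 25.8 to 58.4 CPM in Ctrl embryos (median 47.3) and from 5.11 to 22.9 in KO embryos (median 10.9), -1.94 ± 0.36 (SE), adjusted p = 3.21e-05. It too was separate between groups. In a list of fatty acid oxidation, binding and storage, 3 genes were higher, of which Acadl and Cpt2 act in oxidation, and none lower of 15 (20%, background 3.34% higher), with a median of 0.51. Acadl, the long-chain acyl-CoA dehydrogenase, was read from 71.2 to 319 CPM in Ctrl embryos (median 194) and from 328 to 655 in KO embryos (median 481), 1.28 ± 0.16 (SE), adjusted p = 2.01e-09, and Cpt2, which completes carnitine-dependent import, rose from 28.6 ± 8.62 to 61.7 ± 19.8 CPM at 1.10 ± 0.24 (SE), adjusted p = 4.72e-04. Neither overlapped. Dgat2, which forms triglycerides for storage, rose at 1.21 ± 0.44 (SE), adjusted p = 0.0486. In fatty acid synthesis 2 rose (Mlxipl and Acsbg1) and 1 fell (Fads1, -1.51) of 19 (15.8%). Pemt and Bhmt were among the abundant genes that rose most. Pemt, which methylates phosphatidylethanolamine, ranged from 48.5 to 163 CPM in Ctrl embryos (median 76.8) and from 82.9 to 558 in KO embryos (median 308), 1.76 ± 0.32 (SE), adjusted p = 1.70e-05, and Bhmt, which passes a methyl group from betaine to homocysteine, ranged from 43.2 to 298 CPM in Ctrl embryos (median 147) and from 229 to 1027 in KO embryos (median 441), 1.76 ± 0.30 (SE), adjusted p = 6.02e-06. Both overlapped at the lowest KO embryo, and Bhmt was at 0.80 in set 1 and 2.64 in set 2, not called in set 1 alone (adjusted p = 0.0621). Of 16 glutathione genes (12.5% called) Gsto1 (1.34) and Mgst2 (2.38) rose and none fell. Cpt2 was not called without KO 2-8 (0.96). Dgat2 lost its call without any 1 of Ctrl 1-1, Ctrl 1-10, Ctrl 1-5, Ctrl 2-1, Ctrl 2-6, KO 2-10, KO 2-3 or KO 2-8 (0.99 to 1.29).

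Few chromatin regulators were called. Of 32 Polycomb genes 3 fell and none rose, 9.38% against 6.95% of all tested genes (median -0.26). Ezh2, the H3K27 methyltransferase, was read from 105 to 234 CPM in Ctrl embryos (median 177) and from 52.6 to 113 in KO embryos (median 79.9), -1.09 ± 0.17 (SE), adjusted p = 6.25e-07. Pcgf6 (-1.03 ± 0.20 (SE), adjusted p = 8.89e-05), without overlap, and Bcor (-1.06 ± 0.34 (SE), adjusted p = 0.0244) belong to variant PRC1 complexes. Without KO 2-6 Bcor was at -1.43 (adjusted p = 0.00253). Among 12 genes of DNA methylation Dnmt3a rose, from 45.3 ± 21.7 to 123 ± 31.2 CPM at 1.43 ± 0.26 (SE), adjusted p = 1.47e-05, and Uhrf1, which guides maintenance methylation, fell at -1.09 ± 0.27 (SE), adjusted p = 0.00201. Dnmt3b was at -0.90 ± 0.28 (SE), adjusted p = 0.0212, under the fold minimum. It was called lower without any 1 of Ctrl 1-1, Ctrl 1-4, Ctrl 2-3 or KO 2-6 (-1.093 to -1.001). Of 14 Sin3 and HDAC complex genes Sap30 fell and Brms1l (1.06) rose. In the Myc network 3 of 12 fell, Myc (-1.42 ± 0.45 (SE), adjusted p = 0.0197), Mycl (-2.17 ± 0.60 (SE), adjusted p = 0.00774) and Mxd3 (-1.34 ± 0.41 (SE), adjusted p = 0.0167), and Mlxipl rose. Of 18 p53 pathway genes 2 fell and none rose, Trp53 itself at -1.14 ± 0.27 (SE), adjusted p = 0.00142 and Gdf15, with 71 UMIs in Ctrl and 9 in KO. Of 13 BCL2 family genes Hrk (-2.16) fell, and of 18 nuclear receptors 3 rose and none fell, Rarb (1.67 ± 0.52 (SE), adjusted p = 0.0195), Rxrg (1.97 ± 0.46 (SE), adjusted p = 0.00129) and Nr1h3, with 4 UMIs in Ctrl and 20 in KO. Imprinted genes gave 2 higher of 20, Plagl1 (2.27) and Sfmbt2 (1.07). Against 6.95% of all tested genes, the share called was 11.1% in the p53 list, 7.69% in the BCL2 list, 10% in the imprinted list, 6.67% in glycolysis, 5.26% in the Hippo list, 14.3% in the Sin3 and HDAC list, 16.7% in the DNA methylation and nuclear receptor lists and 33.3% in the Myc network. Pcgf6 was not called without any 1 of Ctrl 2-1, Ctrl 2-3, KO 1-3 or KO 2-8 (-0.98 to -0.96). Bcor lost its call without any 1 of Ctrl 2-6, KO 1-3, KO 1-5 or KO 2-10 (-0.99 to -0.90). Uhrf1 was no longer called without any 1 of Ctrl 2-4 or KO 2-8 (-0.98 to -0.97). Myc was not called without any 1 of Ctrl 2-1 or KO 1-1 (-1.26 to -0.99). Mxd3 lost its call without KO 1-3 (-1.15). Trp53 was no longer called without Ctrl 2-1 (-0.997). Rarb was not called without KO 2-8 (1.49). Nr1h3 lost its call without any 1 of Ctrl 2-1, Ctrl 2-4, Ctrl 2-6, KO 2-3 or KO 2-8 (1.78 to 2.08). By label set Uhrf1 was at -0.59 in set 1 and -1.43 in set 2, Bcor at -1.45 in set 1 and -0.78 in set 2, Trp53 at -0.72 in set 1 and -1.39 in set 2, Gdf15 at -0.69 in set 1 and -3.58 in set 2, Rxrg at 3.82 in set 1 and 0.998 in set 2 and Nr1h3 at 0.74 in set 1 and 3.56 in set 2. With sets as a block or sex as a covariate Rarb, Nr1h3 and Mxd3 were not called.

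Cdx2, Gata3 and Eomes rose among trophectoderm factors, and the keratin genes Krt8 and Krt18 were not called. Of 18 tested factors 3 rose and 1 fell (background 3.34% higher and 3.61% lower), with a median of 0.59. Cdx2, the caudal factor of trophectoderm, was read from 0 to 28.2 CPM in Ctrl embryos (median 8) and from 10.2 to 68.3 in KO embryos (median 29.4), 1.85 ± 0.37 (SE), adjusted p = 9.88e-05. Gata3 ranged from 3.97 to 223 CPM in Ctrl embryos (median 45.8) and from 117 to 312 in KO embryos (median 157), 1.52 ± 0.33 (SE), adjusted p = 4.89e-04, and Eomes, a T-box factor of the same lineage, from 3.36 to 37.8 CPM in Ctrl embryos (median 10.7) and from 13.6 to 44.6 in KO embryos (median 29.3), 1.19 ± 0.38 (SE), adjusted p = 0.0232. All overlapped, for Gata3 through Ctrl 1-10, the embryo with the highest trophectoderm marker sum, and the difference without that embryo was 2.13 (adjusted p = 7.67e-07). Gata2 fell at -2.19 ± 0.70 (SE), adjusted p = 0.0239, and Tead4, the Hippo effector, was at 0.67 ± 0.17 (SE), adjusted p = 0.00235, without overlap but under the fold minimum. Effector genes numbered 4 higher and 2 lower of 23 (median -0.01). Dsp, which encodes the desmosomal protein desmoplakin, ranged from 8.97 to 49.8 CPM in Ctrl embryos (median 25.9) and from 81.4 to 225 in KO embryos (median 174), 2.60 ± 0.34 (SE), adjusted p = 2.81e-09, without overlap. Krt19 (1.95 ± 0.55 (SE), adjusted p = 0.0082), Ocln of the tight junction (1.24 ± 0.26 (SE), adjusted p = 2.18e-04) and Cldn4, also of the tight junction (1.14 ± 0.22 (SE), adjusted p = 4.04e-05), rose with overlap. Aqp3, a water channel, fell at -1.27 ± 0.32 (SE), adjusted p = 0.00286, and Atp1b1, a subunit of the sodium pump, at -1.04 ± 0.32 (SE), adjusted p = 0.0192. Krt8 was at 0.30 ± 0.42 (SE), adjusted p = 0.72 and Krt18 at -0.40 ± 0.51 (SE), adjusted p = 0.675, with single Ctrl embryos as high as 1225 and 1138 CPM. Eomes was not called without any 1 of Ctrl 1-1, Ctrl 2-1, KO 2-3 or KO 2-8 (1.05 to 1.10). Gata2 lost its call without any 1 of Ctrl 1-10, KO 2-3 or KO 2-8 (-2.04 to -1.85). Krt19 was no longer called without KO 1-1 (1.42). Cldn4 was not called without KO 1-1 (0.94). Atp1b1 lost its call without any 1 of Ctrl 1-10, Ctrl 2-6, KO 1-1, KO 1-5, KO 2-10 or KO 2-3 (-0.99 to -0.85). By label set Krt19 was at 2.53 in set 1 and 0.29 in set 2 and Krt18 at 0.14 in set 1 and -1.47 in set 2. Cdx2 was not called in set 2 alone (1.65, adjusted p = 0.0702) and Gata3 not in set 1 alone (1.45, adjusted p = 0.0507). Eomes was called in neither set alone (1.41 and 1.07, adjusted p = 0.0549 and 0.194).

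Primitive endoderm genes were mostly not called, and the values of Lama1, Foxq1, Serpinh1 and Gata4 moved with single embryos. Of 7 factors 1 fell and none rose, and of 14 effectors 2 fell and none rose, 14.3% of each list against 3.61% lower over all tested genes (medians -0.06 and -0.38). Gata6, the early endoderm factor, was read from 89.7 to 390.4 CPM in Ctrl embryos (median 219) and from 277 to 469 in KO embryos (median 385), 0.77 ± 0.25 (SE), adjusted p = 0.0253, under the fold minimum. It was called higher in set 1 alone (1.03, adjusted p = 0.0224) and not in set 2 alone (0.57, adjusted p = 0.172). Sox17 was at -0.70 ± 0.61 (SE), adjusted p = 0.51, Gata4 at -1.55 ± 0.60 (SE), adjusted p = 0.0694 and Pdgfra, the receptor that marks the lineage, at 0.03 ± 0.41 (SE), adjusted p = 0.982. The label sets differed in sign here, with Pdgfra at 1.89 in set 1 and -1.004 in set 2 (called higher in set 1 alone, adjusted p = 5.39e-04), Sox17 at 1.000 in set 1 and -1.77 in set 2 and Gata4 at 0.10 in set 1 and -2.43 in set 2. Lama1, a basement membrane laminin, ranged from 9.06 to 453 CPM in Ctrl embryos (median 48.6) and from 2.45 to 199 in KO embryos (median 10.7), -1.73 ± 0.56 (SE), adjusted p = 0.0261, and Foxq1 from 0 to 167 CPM in Ctrl embryos (median 25.3) and from 0 to 74.2 in KO embryos (median 2.57), -1.82 ± 0.62 (SE), adjusted p = 0.0369. Lama1 was at -0.95 in set 1 and -1.86 in set 2, called in neither alone. The highest Ctrl and the highest KO embryo were both numbered 2-6 in Lama1, Serpinh1, Foxq1 and Gata4. Without KO 2-6 the differences were -3.30 (adjusted p = 2.94e-05) in Lama1, -3.75 (adjusted p = 5.07e-05) in Foxq1, -2.96 (adjusted p = 3.99e-05) in Serpinh1, the collagen chaperone, and -2.02 (adjusted p = 0.0218) in Gata4. Without Ctrl 2-6 they were -0.97 (adjusted p = 0.284) in Lama1 and -1.03 (adjusted p = 0.329) in Foxq1, so that neither was called. Serpinh1 was not called without Ctrl 2-6 (-1.44). Gata4 was also called lower without any 1 of Ctrl 1-1, Ctrl 1-4 or KO 1-6 (-1.999 to -1.716). Leaving out other single embryos also ended calls. Lama1 was not called without any 1 of Ctrl 2-4, Ctrl 2-6, KO 1-1, KO 1-3, KO 1-5, KO 2-10, KO 2-3 or KO 2-8 (-1.63 to -0.97). Foxq1 lost its call without any 1 of Ctrl 2-4, Ctrl 2-6, KO 1-1, KO 1-3, KO 1-5, KO 1-6, KO 2-10, KO 2-3 or KO 2-8 (-1.77 to -1.03).

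Housekeeping groups were not called. None of 87 cytosolic and 74 mitochondrial ribosomal genes, 75 nuclear and 13 mitochondrial genes of oxidative phosphorylation, 38 proteasome, 20 cholesterol synthesis and 14 endoplasmic reticulum chaperone genes passed both thresholds in edgeR, with medians between -0.14 (cholesterol) and 0.18 (cytosolic ribosome). At the adjusted p alone 15 cytosolic ribosomal, 7 mitochondrial ribosomal and 10 nuclear oxidative phosphorylation genes passed, where 13.8% of all tested genes did. Of 29 cell cycle genes 1 rose, Cdkn2b (2.07, adjusted p = 0.00572), and none fell, 3.45% of the list against 3.34% higher over all tested genes.

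The early ICM of the same line was compared to see which differences were there already. In early ICM 459 genes were called (3.27%), and 254 genes were called in both stages in the same direction, 26% of the late and 55.3% of the early calls. Stage comparisons used separate embryos and controls. The difference of effects between stages, tested in the same fit, was called for 6 genes (0.0427%), with 1494 at an unadjusted p under 0.05. Fgf4 was at -2.58 ± 0.36 in early ICM, Il6st at -2.75 ± 0.43, Klf2 at -2.14 ± 0.25 and Enpep at 1.86 ± 0.32, all called there too. Of the genes called by stage, Rbbp5, a core subunit of the H3K4 methyltransferase complexes, had 44.8 ± 10.1 in Ctrl and 42.8 ± 4.15 in KO in early ICM and 66.4 ± 13.97 in Ctrl and 30.8 ± 7.21 in KO in late ICM (CPM, mean ± SD, n = 8). The difference of its effects was -1.05 ± 0.23 (SE, adjusted p = 0.0394), the Ctrl mean being higher and the KO mean lower in late than in early ICM. Pemt had 242 ± 209.8 in Ctrl and 202 ± 99.9 in KO in early and 88.95 ± 40.2 in Ctrl and 300.1 ± 145 in KO in late ICM, a difference of effects of 2.02 ± 0.44, adjusted p = 0.0394. Gpd1l, a glycerol phosphate dehydrogenase, stood at 289 ± 326 in Ctrl and 223 ± 96.1 in KO and then 95.5 ± 33.6 in Ctrl and 294 ± 139.6 in KO, 1.996 ± 0.44, adjusted p = 0.0394. Both had been high in morulae, at 883 ± 153 in Ctrl and 979 ± 155 in KO for Pemt and 1965 ± 299 in Ctrl and 2042 ± 335 in KO for Gpd1l. From early to late ICM their means went down in Ctrl and up in KO. The early Ctrl embryos were widely spread, with SDs close to or above their means. Leaving out single embryos was not tried for the difference between stages. Ankzf1, of ribosome quality control, differed by 1.94 ± 0.41 and Gemin5, of the SMN complex, by 1.18 ± 0.26, and for Gemin5 KO embryos were lower in early ICM (112 ± 22.4 in Ctrl and 59.2 ± 18.5 in KO) and not in late ICM (82.5 ± 20.5 in Ctrl and 98.4 ± 22.9 in KO). Xrcc1 was the other gene called. The call of Rbbp5 was lost with no detection filter (adjusted p = 0.0631), with embryos thinned to the lowest total (adjusted p = 0.26) and, at -0.92, under the fold minimum with limma on rlog values, and those of Gpd1l and Pemt were lost with limma (adjusted p = 0.115 and 0.0881).

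**Figure D4:**
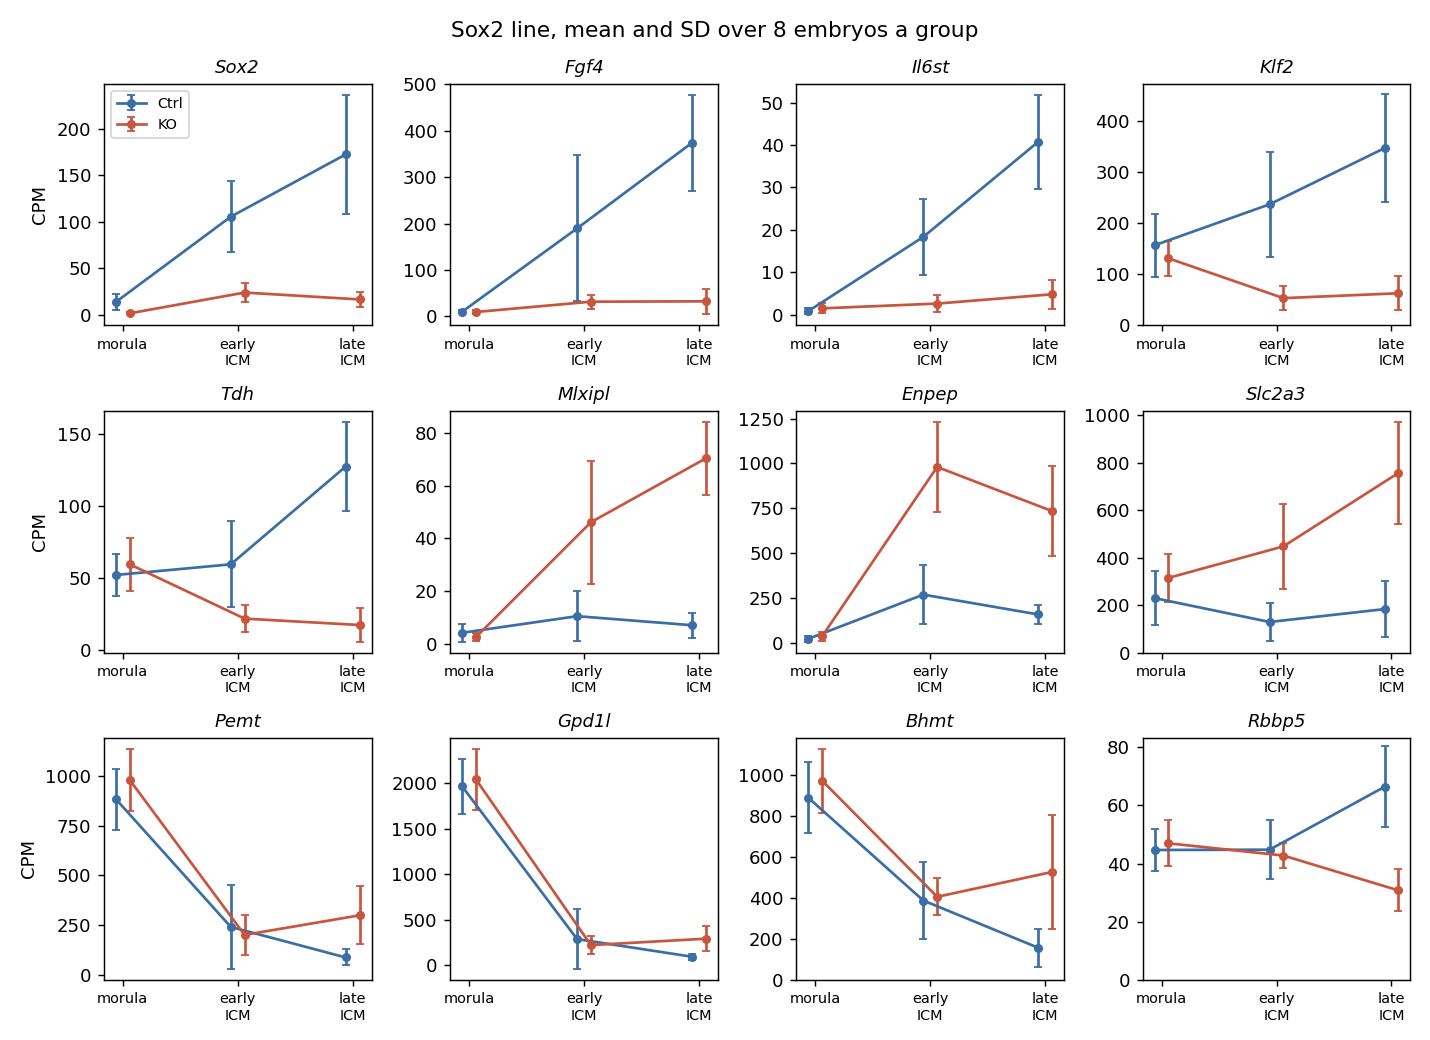
Mean CPM (y, bars are SD over 8 embryos) of single genes in morula, early ICM and late ICM (x) of the Sox2 line, Ctrl in blue and KO in red. Fgf4 and Il6st rise in Ctrl and stay low in KO, and Pemt and Gpd1l come down from the morula in both genotypes but end higher in KO late ICMs.

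Loss of Oct4 at the same stage was set beside these values, from an Oct4 line with its own controls, where 2544 genes were called (18.1%), 1300 higher (9.25%) and 1244 lower (8.85%). The difference between the Sox2 and Oct4 effects was called for 886 genes (6.3%), 491 of them higher (3.49%) and 395 lower (2.81%) for Sox2. Sox2 itself was called lower without Oct4, at -1.62 ± 0.27 (adjusted p = 1.03e-06), less far than in the Sox2 line (difference -1.74 ± 0.42, adjusted p = 0.00332). Several other genes fell under both losses with no called difference. Klf2 was at -2.47 without Sox2 and -2.62 ± 0.25 without Oct4, Lifr at -2.72 and -2.94 ± 0.53, Il6st at -3.01 and -3.88 ± 0.44 and Fgf4 at -3.50 and -4.35 ± 0.41. The differences of effects were 0.14 ± 0.35 for Klf2, 0.22 ± 0.80 for Lifr, 0.87 ± 0.62 for Il6st and 0.84 ± 0.54 for Fgf4. Other epiblast genes fell much further without Oct4. Gdf3 was at -1.85 against -6.59 ± 0.46, a difference of 4.73 ± 0.61 (adjusted p = 5.98e-09), Tdgf1 differed by 4.27 ± 0.50 (adjusted p = 2.63e-10) and Bmp4 by 4.34 ± 1.02 (adjusted p = 0.00245). Nanog was at 0.07 and -1.19 ± 0.24, a difference of 1.27 ± 0.33 (adjusted p = 0.00618), and Sox17, a primitive endoderm factor, differed by 5.87 ± 1.39 (adjusted p = 0.00271), not called with limma (1.21, adjusted p = 0.417).

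Some changes were called for Sox2 and ran differently without Oct4. Cck was at -0.07 ± 0.94 without Oct4, a difference of 4.53 ± 1.22 (adjusted p = 0.00873), and Osr2 at 0.63 ± 0.60, a difference of 3.67 ± 0.86 (adjusted p = 0.00232). Mlxipl fell without Oct4 (-2.21 ± 0.73) and rose without Sox2, a difference of 5.52 ± 0.82 (adjusted p = 3.51e-07). Ckb was at 0.96 ± 0.21 without Oct4 and fell without Sox2, a difference of -3.11 ± 0.30 (adjusted p = 8.35e-14), and Slc2a1 differed by -1.44 ± 0.40 (adjusted p = 0.0133). Slc2a3 and Enpep rose under both losses, with differences of effects of -0.07 ± 0.45 and -0.41 ± 0.45, not called. Beside Pou5f1 itself, which is deleted in the Oct4 line (7.19 ± 0.56), the widest gaps at either end among genes at 20 CPM or more were Tbx15 (6.74 ± 0.65), Sfrp1, a Wnt antagonist (6.08 ± 0.87), and Rxrg (6.02 ± 1.06), which fell without Oct4, and BC051665 (-5.20 ± 1.75), the transporter Slc6a13 (-5.19 ± 1.19) and the carbonic anhydrase Car4 (-5.14 ± 1.20), which rose without it. Of these only Rxrg was called for Sox2, and the gap of BC051665 was not called with totals alone, DESeq2, thinned counts or limma (adjusted p up to 0.348). Of the trophectoderm factors Cdx2, Gata3 and Eomes rose under both losses. Cdx2 was at 1.85 and 1.92 ± 0.39, Gata3 at 1.52 and 2.85 ± 0.35 and Eomes at 1.19 and 1.97 ± 0.34. The difference was -1.33 ± 0.47 for Gata3 (adjusted p = 0.0604) and -0.78 ± 0.52 for Eomes, neither called. Krt18 rose without Oct4 (2.60 ± 0.54) and differed from its value without Sox2 by -3.004 ± 0.73 (adjusted p = 0.00335).

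**Figure D5:**
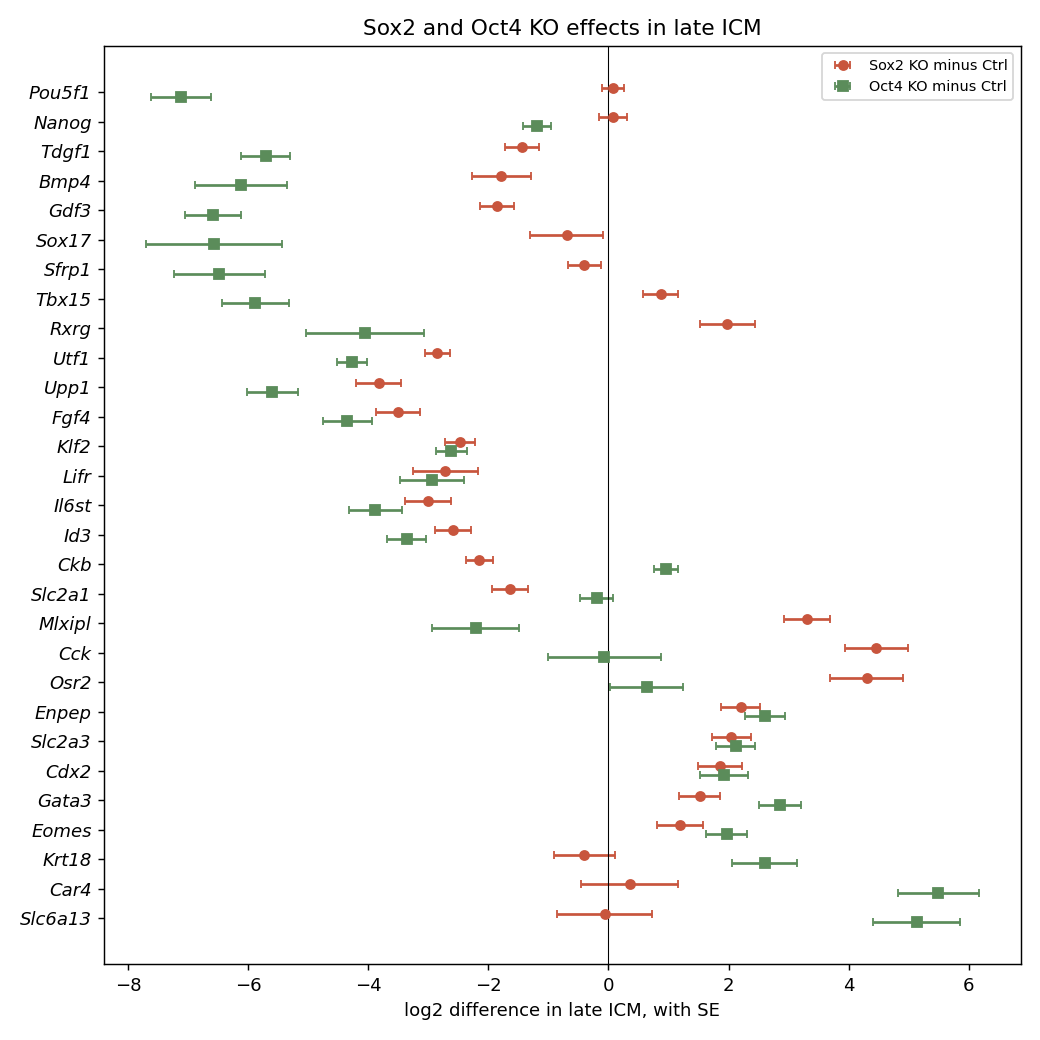
Log2 difference of KO minus Ctrl in late ICM (x, bars are SE) for single genes (rows) after loss of Sox2 (red circles) and of Oct4 (green squares). Klf2, Lifr, Slc2a3 and Cdx2 have nearly the same values in both lines, and Pou5f1, Tbx15, Mlxipl and Ckb lie far apart.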

How the data were processed

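Single ICMs were sequenced from their 3′ ends with UMIs, and the authors deposited whole-number UMI counts for 29022 genes and rlog values (a log2 scale) made with DESeq2. Per the study's methods the authors used UMI-tools, Cutadapt, TopHat2 on mm10 with GENCODE vM23, featureCounts (use of strand not stated) and TRUmiCount, and ERCC spike-ins were not used here. The 14053 genes with a UMI in 0.5 or more of the embryos at 1 stage or more were fitted over 96 Ctrl and KO embryos in 12 groups with edgeR 4.0.16 (R 4.3.3, TMM, glmQLFTest), and every adjusted p comes from this fit unless the text names another fit (embryos left out, a label set alone, another tool). SE is the absolute difference divided by the square root of F. The script was tested on simulated data. Late ICMs of the Sox2 line and the gene lists were chosen with earlier results of these data known. Named genes are Sox2 and Pou5f1, the 8 largest changes each way at 20 CPM or more, the 6 each way at 200 CPM or more, up to 3 each way per interaction and list members, and 1 list member is not reported here. Nothing says that embryos came from separate litters, so p-values measure the spread between these embryos. The most alike embryos within a group still had a chi-square per gene of 2.91.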

Additional observations from a re-analysis of the deposited data

Results flagged for a closer look

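The KO embryo 2-6 was the one most often apart. Within its group it lay far above the rest, by Dixon's criterion for a single distant value, in Lifr at 45.8 (next 8.39), Fgf10 at 33.4 (next 10.8), Spry4 at 33.4 (next 14.7), Lefty1 at 4.95 (next 1.36), Lama1 at 199 (next 28.8), Serpinh1 at 219 (next 58.7), Foxq1 at 74.2 (next 9.59), Slc7a1 at 40.8 (next 17.1) and Bcor at 42.1 (next 19.3) CPM, 9 of the 22 genes with a distant KO embryo. In all, 46 of 292 groups of 8 embryos had such a value. The criterion flags about 1 group in 20 by chance only where values are normally distributed. Here it was applied to CPM, which for some genes rest on few counts, such as Fzd9 with 2 UMIs in KO. Among single genes only Utf1 and Atf4 were flagged for a low value, and the rest for a high one. The rate by chance is therefore not known, and whether 46 exceeds it was not tested. The flagged genes share the same 16 embryos, so their distant values are not independent.

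Ctrl 2-3 stood above its group in Acsbg1 at 9.26 (next 4.33), Ckb at 581 (next 402), Tbx15 at 78.1 (next 43.8), Rxrg at 19.9 (next 9.16) and Fgfr1 at 188 (next 113) CPM. Ctrl 2-6 was the highest, apart from its group, in BC051665 at 30.2 (next 11.9), Pim1 at 37.8 (next 22.5), Eomes at 37.8 (next 12.5), Serpinh1 at 467 (next 222) and Foxq1 at 167 (next 70.2) CPM. KO 1-5 held a distant high value in Slc7a3 at 3.43 (next 1.24), Zic5 at 3.43 (next 1.36), Tcl1 at 12.6 (next 4.95) and Fzd9 at 2.29 (next 0) CPM. Ctrl 1-10 stood above its group in Mlxipl at 17.3 (next 8.97), Cib2 at 30.4 (next 12.5), Slc6a13 at 8.67 (next 3.24) and Gata3 at 223 (next 97.2) CPM. Ctrl 1-4 was the highest, apart from its group, in Pou5f1 at 212 (next 128), Ccdc92b at 19.2 (next 7.13) and Aqp3 at 146 (next 84.5) CPM. Ctrl 2-1 held a distant high value in Osr2 at 30.6 (next 13.0), Obsl1 at 32.6 (next 8.64) and Myc at 131 (next 68.2) CPM. KO 2-10 stood above its group in Tbx15 at 160.2 (next 98.1), Esrrb at 153 (next 101) and Nog at 15.3 (next 4.57) CPM. KO 2-3 was the highest, apart from its group, in Pim1 at 47.9 (next 21.8) and Trp53 at 76.9 (next 44.6) CPM. KO 1-3 held a distant high value in Inhbb at 7.34 (next 3.34) and Fgf1 at 9.79 (next 1.24) CPM. Ctrl 1-10 lay below its group in Utf1 at 241 (next 341) CPM. KO 2-8 was the highest, apart from its group, in Sfrp1 at 122 (next 95.4) CPM. Ctrl 2-4 held a distant high value in Lefty1 at 11.9 (next 2.16) CPM. KO 1-1 stood above its group in Cldn4 at 789 (next 435) CPM. Ctrl 2-1 lay below its group in Atf4 at 238 (next 324) CPM. The summed epiblast markers of Ctrl 2-1 reached 3854 CPM against 2860.0 in the next embryo.

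Effects of Sox2 loss that differed by test between late and early ICM, as log2 differences of the effects, were those of Rbbp5 (-1.05), Gpd1l (2.00), Ankzf1 (1.94), Gemin5 (1.18) and Pemt (2.02). Each had an adjusted p of 0.0394 in edgeR, and the embryos of the stages are separate. Between the Sox2 and Oct4 lines in late ICM the effect was more positive for Sox2 in Tbx15 (6.74), Sfrp1 (6.08), Rxrg (6.02), Pou5f1 (7.19), Nanog (1.27), Cck (4.53), Osr2 (3.67), Sox17 (5.88), Utf1 (1.42), Upp1 (1.77), Tdgf1 (4.27), Bmp4 (4.34), Gdf3 (4.73) and Mlxipl (5.52). It was more negative for Sox2 in BC051665 (-5.20), Slc6a13 (-5.19), Car4 (-5.14), Krt18 (-3.004), Ckb (-3.11) and Slc2a1 (-1.44). These are not all. Other named genes were also called in edgeR, and their difference was not refitted under other settings. Among them Esrrb (3.08), Etv5 (2.96), Foxd3 (2.79), Klf4 (1.80) and Dppa3 (1.10) were more positive for Sox2. Gata2 (-3.11), Fgf3 (-2.66) and Sox2 (-1.74) were more negative.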

How the results depend on the processing

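No called difference of a refitted named gene changed direction under any setting, and without any 1 embryo the count of called genes lay between 849 and 1043 (977 with all). It was 972 with RLE scaling, 1007 with totals alone, 907 with DESeq2 and 984 with no detection filter. It moved to 1935 with no fold minimum, which admits smaller differences by construction, and to 439 with limma on the deposited rlog values (the cause was not tested). Counts thinned to the lowest total gave 828. Fitted over the 16 late ICMs only, 842 were called, 890 with sets as a block, 719 with sex as a covariate (635 of them among the 977), and 458 and 677 in the 8 embryos of set 1 and set 2 alone. Genes that differed between stages numbered 41 with DESeq2 and 10 with limma against 6, and of these 6 all were among the DESeq2 calls, 2 among those of limma and 4 each among those with no detection filter and those of thinned counts. Genes that differed between lines ran from 681 to 1219. Of those named and refitted, Upp1 and BC051665 were not called with totals alone, DESeq2, thinned counts or limma, and Sox17 and Utf1 not with limma. Detected genes, fewer in KO over all embryos, were 8.25 more in KO within set 1.

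Same-numbered embryos were not shown to be pairs, since 1 of the 4 correlations of their deviations (-0.04, 0.204, 0.289 and 0.352) was below the limit of 0.1. With the number as a replicate block over these 8 embryos 638 genes were called, against 320 in the same embryos unpaired. Embryos of the same label set deviated together slightly (median r 0.104, against -0.108 across sets).

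Some called list members given above, such as Ier3, Tgif1, Amot, Fads1, Hrk and Cdkn2b, were not refitted under other settings. Of the 141 named genes that were refitted, 105 were called. Of these, 77 stayed called without any 1 embryo, 93 with sets as a block, 89 with sex as a covariate and 58 in each set alone, and all 105 had the same sign in both sets. Both the set block and the sex covariate ended the calls of Fgf3, Spry4, Inhbb, Spp1, Lama1, Foxq1, Slc7a7, Mxd3, Rarb and Nr1h3, the block alone those of Cebpb and Fgf1, and the covariate alone those of Rbbp5, Gata2, Atp1b1, Serpinh1, Dgat2 and Myc. Of the 36 not called, 21 changed sign under some setting. With totals of 605931 UMIs or more, 1 CPM is about 1 UMI, so genes near that level can show only large differences.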
